A study of Mus musculus with 27 samples.

Results

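Fibrillar collagen is modified before and after it leaves the cell, and the genes described here encode the enzymes that do so. They are 10 genes of the deposited mouse expression table, picked by symbol: the lysyl oxidase genes Lox, Loxl1, Loxl2 and Loxl3, the lysyl hydroxylase genes Plod1, Plod2 and Plod3, the prolyl 4-hydroxylase alpha subunit genes P4ha1 and P4ha2, and Serpinh1, which encodes a collagen chaperone. Each matched exactly 1 of the 54532 genes listed. Bulk RNA sequencing was performed on tibialis anterior muscle in a mouse model of volumetric muscle loss (VML), the surgical removal of a piece of muscle too large to regrow. The mice were C57BL/6 males of 8 weeks, and 40% of the muscle was excised in the injured ones. The 27 samples comprised 5 uninjured control muscles and muscles taken 3 days (n = 5), 7 days (n = 6), 14 days (n = 6) and 21 days (n = 5) after injury. The study's methods state that the excision was made on both sides, while the description deposited with the data states 1 side, and the sample labels do not settle this. The labels give each library its own title without naming an animal, so the p-values below measure the spread between these samples. Expression is given as FPKM, the number of sequenced fragments per kilobase of gene relative to a total for the library. In the deposited values that total was 0.747 to 1.48 times the library's own number of reads counted on genes. FPKM allows levels of different genes to be compared within a sample.

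Collagen chains are hydroxylated in the endoplasmic reticulum while they are still unfolded. Prolyl 4-hydroxylase, built from alpha subunits and the beta subunit P4HB, makes the hydroxyproline that keeps the triple helix stable at body temperature. Lysyl hydroxylases make the hydroxylysine that carries sugars and later takes part in cross-links; the enzyme encoded by Plod2 acts mainly on the telopeptides, the short non-helical ends of the molecule. The chaperone HSP47, the product of Serpinh1, binds the folded helix on its way out of the cell. Outside the cell, lysyl oxidases convert lysine and hydroxylysine side chains to aldehydes, from which the covalent cross-links between collagen molecules form, and they act on elastin as well. In scarred tissue such cross-links are known to make the matrix stiffer and harder to degrade.

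Expression of 8 of the 10 genes was higher than in uninjured muscle at day 3, and of 8 at day 7, while P4ha1 and P4ha2 did not pass the test at either time (limma on log2(FPKM + 1), adjusted p under 0.05 with Benjamini-Hochberg adjustment over 14630 tested genes; all 10 genes were among those tested, Plod2 through the injured groups). The comparisons at the 4 times share the 5 uninjured muscles. Of all tested genes, 23.4% rose and 19.8% fell at day 3, and 15% rose and 14.4% fell at day 7. At day 14, 6 of the 10 were higher, P4ha2 was lower, and 3 were not called, against 9.02% of all tested genes higher and 11.3% lower. At day 21, none of the 10 was called by limma. An unadjusted limma p under 0.05 was reached by 6 of them and by 2898 of the 14630 tested genes. The share of all tested genes called at day 21 was 1.74% higher and 1.69% lower. Between day 3 and day 21 all 10 fell, where 16.2% of all tested genes were lower and 9.23% higher. In the order of days 3, 7, 14 and 21, the median log2 fold change of the 10 genes was 1.49, 1.01, 0.62 and 0.26, and that of all tested genes 0.01, 0.03, 0.02 and 0.01.

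**Figure D1:**
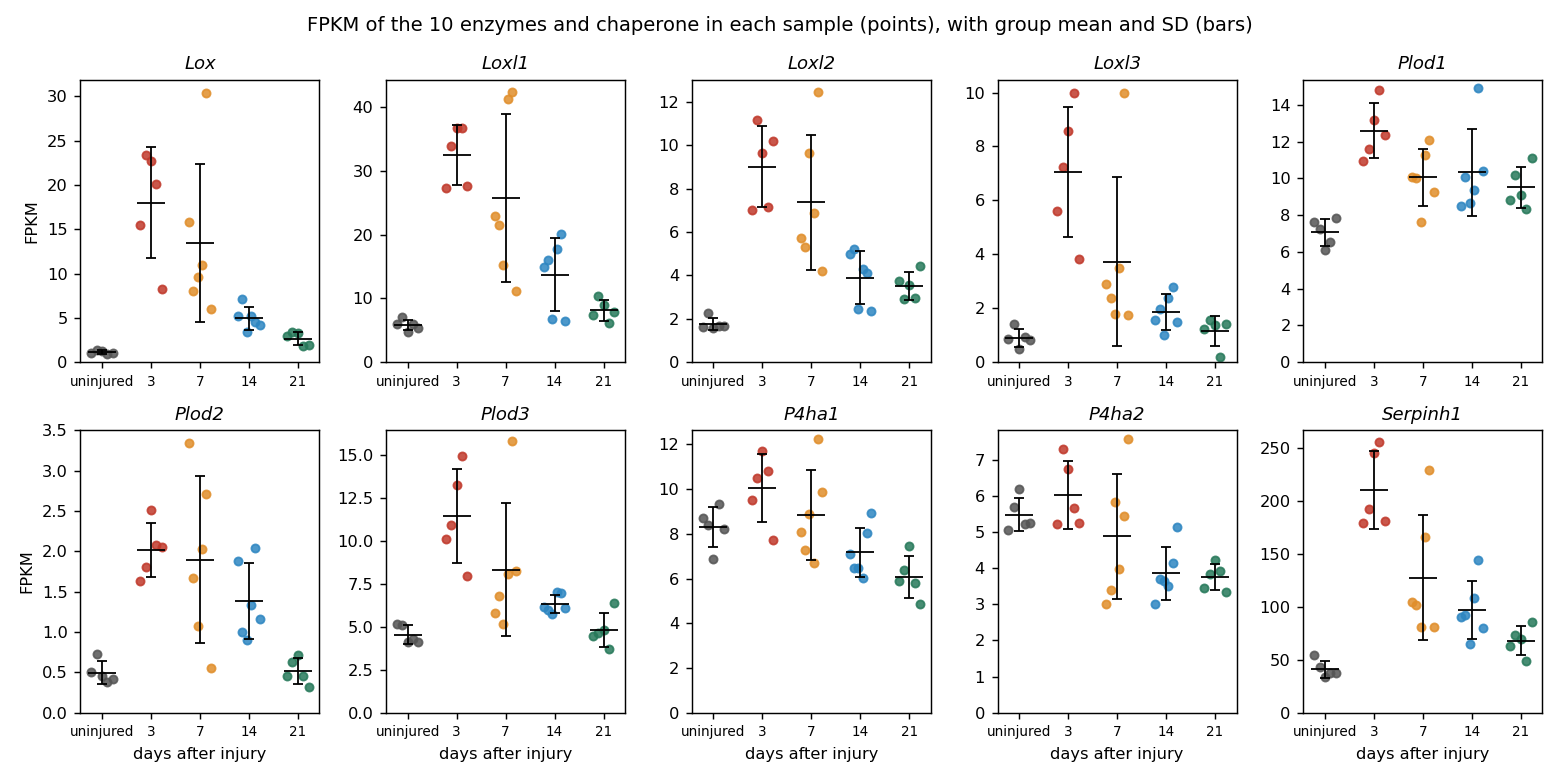
FPKM (linear axis, starting at 0, with a scale of its own in each panel) of the 10 genes in every sample, by group. Points are single samples, and bars give the group mean and SD. The lysyl oxidases and Serpinh1 peaked at day 3 and came down towards day 21, whereas the points of P4ha1 and P4ha2 at days 3 and 7 overlapped those of uninjured muscle.

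These counts rest on FPKM as deposited, which already carries a scaling between samples. When each library was divided by its own read total instead, the median over all tested genes moved to 0.40, 0.36, 0.25 and 0.12 at the 4 times on the log2 scale, and P4ha1 and P4ha2 joined the genes called higher at day 3 and P4ha1 those at day 7, with a log2 fold change of 0.56 (limma adjusted p = 0.020). With FPKM rescaled to a common sum the medians over all tested genes were 0.51, 0.48, 0.29 and 0.12, the same 2 genes were added at day 3, and P4ha1 was added at day 7 with 0.72 (limma adjusted p = 0.017). In bulk tissue, fewer cells of a type and less RNA per cell cannot be told apart.

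Among the lysyl oxidases, Lox changed most. It encodes the founding member of the family. In the 5 uninjured muscles Lox stood at 0.999, 1.39, 1.26, 0.963 and 0.994 FPKM, and at day 3 at 15.5, 23.4, 22.7, 20.1 and 8.25 FPKM. At day 7 it ranged from 5.97 to 30.4 FPKM with a median of 10.3, and at day 14 from 3.43 to 7.10 FPKM with a median of 4.82. Day 21 samples held 2.91, 3.44, 3.24, 1.77 and 1.90 FPKM. Every sample at each of the 4 time points was above every uninjured muscle, day 21 included. Its log2 fold change was 3.09 at day 3 (SE 0.29, limma adjusted p = 7.5e-08), 2.59 at day 7 (adjusted p = 2.0e-06) and 1.46 at day 14 (adjusted p = 0.0012). The difference at day 21, 0.76 (SE 0.29), did not pass the test (limma adjusted p = 0.14). How many of all tested genes lay likewise outside the uninjured range was not counted at any time. A lack of overlap, here and for the genes below, is therefore given as a description only. Levels of Lox in uninjured muscle rest on 57 to 115 reads per library.

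Loxl1, whose product is best known for its part in elastic fibre assembly, was the most abundant lysyl oxidase transcript. It stood at 4.78 to 7.00 FPKM in uninjured muscle and at 27.3 to 36.7 FPKM at day 3, with no overlap. Day 7 samples spread from 11.1 to 42.4 FPKM, still above every uninjured sample, and day 14 samples from 6.51 to 20.1 FPKM, with 4 of 6 samples above the uninjured range. With log2 fold changes of 2.29 at day 3 and 1.83 at day 7, and mean FPKM of 13.7 at day 14 against 5.83 in uninjured muscle, Loxl1 passed the test at all 3 times (limma adjusted p = 2.9e-06, 8.9e-05 and 0.015). At day 21 the samples lay at 6.06 to 10.4 FPKM, with a log2 fold change of 0.41 that did not pass the test (limma adjusted p = 0.46).

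Loxl2 encodes an oxidase that acts on collagen IV of basement membranes. Its levels in uninjured muscle were 1.61, 2.27, 1.59, 1.67 and 1.66 FPKM, and at day 3 they were 7.02, 11.1, 9.63, 7.13 and 10.2 FPKM. At day 7 the range was 4.22 to 12.5 FPKM (median 6.31), and at day 14 it was 2.34 to 5.22 FPKM (median 4.20). At day 21 Loxl2 stood at 3.72, 2.89, 3.55, 2.95 and 4.44 FPKM. As with Lox, all samples of all 4 time points lay above all uninjured muscles, and between days 14 and 21 the mean hardly moved, from 3.90 ± 1.23 (SD, n = 6) to 3.51 ± 0.63 FPKM (SD, n = 5). Loxl2 rose by 1.85, 1.53 and 0.79 on the log2 scale at days 3, 7 and 14 (limma adjusted p = 5.9e-07, 1.5e-05 and 0.0080). The day 21 difference of 0.70 (SE 0.21) was just outside the threshold (limma adjusted p = 0.060). With day 7 replicate 3, 5 or 6 left out of the fit, each in turn, Loxl2 passed at day 21.

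Loxl3 had the lowest mean of the 4 lysyl oxidase genes in uninjured muscle, at 0.481 to 1.40 FPKM and 26 to 111 reads. It rose to 3.83 to 9.98 FPKM at day 3, and most day 7 samples had come down again, with a median of 2.65 FPKM. Day 7 replicate 5 stood apart at 9.99 FPKM. Loxl3 rose by 2.04 at day 3 and 1.14 at day 7 on the log2 scale (limma adjusted p = 8.4e-06 and 0.0041). The difference at day 14 was 0.58, with 5 of 6 samples above the uninjured range, and at day 21 it was 0.15, and neither passed the test. Part of the exons of Loxl3, 535 bases or 11.6%, lie opposite exons of Htra2, which reached at most 7.21 FPKM, and the libraries were not strand specific, so reads in that stretch cannot be assigned to either gene.

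**Figure D2:**
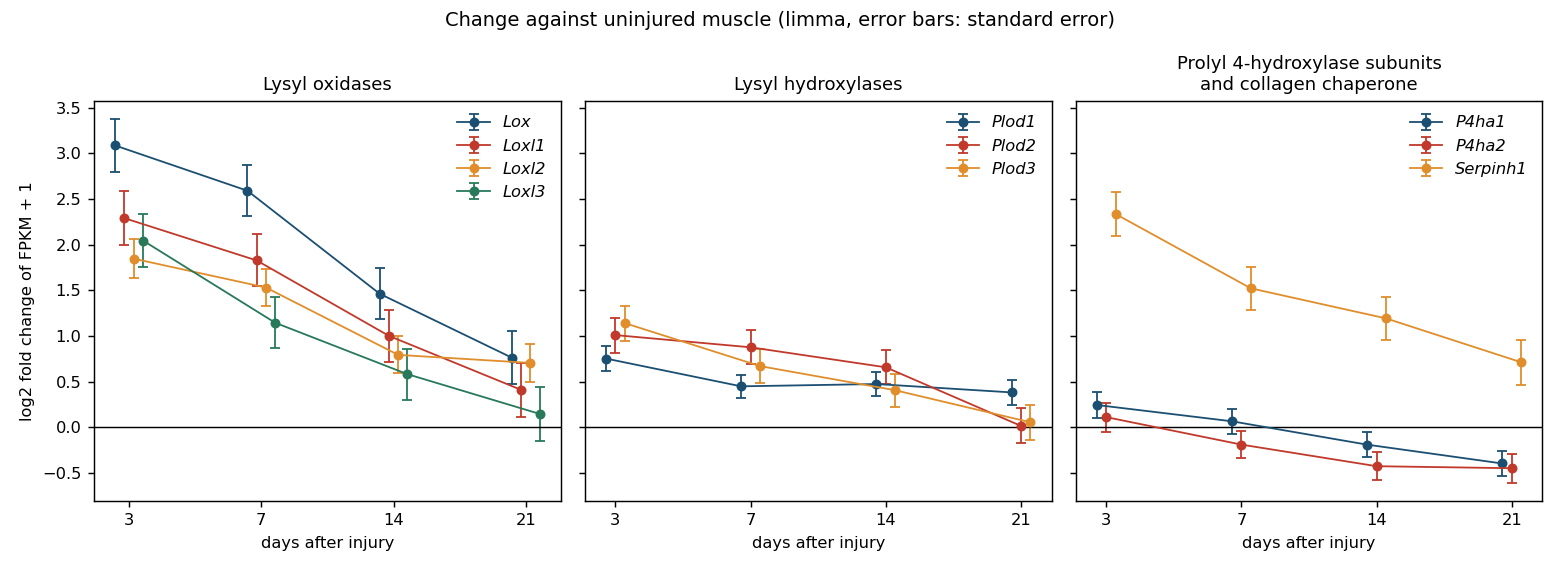
Log2 fold change of FPKM + 1 against uninjured muscle at days 3, 7, 14 and 21, by enzyme family. Points are limma estimates and bars their standard errors. Lox started highest at 3.09 and Serpinh1 stood at 2.33 at day 3, whereas P4ha1 and P4ha2 stayed near 0 and ended below it.

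The lysyl hydroxylases rose at day 3 by less than the lysyl oxidases did, and among them Plod2 changed most in proportion. Plod2 was scarce in uninjured muscle, at 0.501, 0.733, 0.458, 0.377 and 0.418 FPKM, counted from 25 to 68 reads. At day 3 it stood at 1.64, 1.80, 2.52, 2.08 and 2.06 FPKM, all above the uninjured samples. At day 7 it ranged from 0.551 to 3.35 FPKM (median 1.85), the lowest sample overlapping the uninjured range, and at day 14 from 0.901 to 2.04 FPKM (median 1.25), without overlap. By day 21 Plod2 was back at 0.451, 0.627, 0.719, 0.457 and 0.316 FPKM, within or below the uninjured values. The ratio of its mean FPKM to that of uninjured muscle was 4.06, 3.82, 2.79 and 1.03 at the 4 times. On the log2(FPKM + 1) scale, which understates the change of so low a gene, the differences were 1.01, 0.88, 0.66 and 0.01, and those at days 3, 7 and 14 passed the test (limma adjusted p = 0.00019, 0.0014 and 0.014). Plod2 reached the minimum of 0.5 FPKM in 2 of 5 uninjured libraries and so was tested because of its level in injured muscle; without that filter it was called by limma at the same 3 times. For day 14 the call was lost when FPKM was rescaled to a common sum.

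Plod1, the most abundant of the 3 lysyl hydroxylase transcripts, was higher by a smaller amount. Uninjured muscles held 6.11 to 7.84 FPKM, day 3 muscles 10.97 to 14.8 FPKM and day 7 muscles 7.60 to 12.1 FPKM. The range of the 6 day 14 muscles was 8.49 to 14.9 FPKM and that of the 5 day 21 muscles 8.32 to 11.1 FPKM. Only 1 of the 22 injured samples, at day 7, fell within the uninjured range. Log2 fold changes of 0.75, 0.45 and 0.47 at days 3, 7 and 14 passed the test (limma adjusted p = 9.2e-05, 0.011 and 0.011), and that of 0.38 at day 21 did not (adjusted p = 0.11).

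Plod3, which encodes an enzyme with both lysyl hydroxylase and glycosyltransferase activity, rose from 4.08 to 5.15 FPKM in uninjured muscle to 7.92 to 14.9 FPKM at day 3. At day 7 it lay between 5.18 and 15.8 FPKM (median 7.41) and at day 14 between 5.74 and 7.01 FPKM, with every sample of both days above the uninjured range. The 5 day 21 muscles held 3.71 to 6.36 FPKM, with 1 of 5 samples above that range. Plod3 rose by 1.14 at day 3 and 0.67 at day 7 on the log2 scale (limma adjusted p = 4.8e-05 and 0.0081), and the difference was then 0.40 at day 14 (adjusted p = 0.11) and 0.05 at day 21. Exons of Znhit1 on the opposite strand cover 529 bases, or 11.7%, of the Plod3 exons, and Znhit1 reached 33.6 FPKM.

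The prolyl 4-hydroxylase alpha subunits did not follow the other enzymes. P4ha1 was at 8.71, 8.38, 6.88, 9.32 and 8.20 FPKM in uninjured muscle and at 9.49, 10.5, 11.7, 10.8 and 7.73 FPKM at day 3, with 4 of 5 samples above the uninjured range and 1 within it. The log2 fold change at day 3 was 0.24 (95% interval -0.05 to 0.53, limma adjusted p = 0.17), and at day 7 it was 0.06 (-0.21 to 0.34), both on FPKM as deposited. The upper bounds lay below the estimates of all 8 genes called higher at those times, although the differences between genes were not tested here. At day 21 P4ha1 stood at 5.88, 6.37, 7.44, 5.82 and 4.88 FPKM, with a log2 fold change of -0.40 (limma adjusted p = 0.11). The difference between days 21 and 3, -0.64 (SE 0.14), passed the test (limma adjusted p = 0.0016).

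P4ha2 was at 5.05, 5.70, 6.20, 5.23 and 5.24 FPKM in uninjured muscle and at 5.22, 7.30, 6.75, 5.67 and 5.25 FPKM at day 3. At day 7 it spread from 3.01 to 7.59 FPKM (median 4.72), on both sides of the uninjured range, and at day 14 from 3.01 to 5.14 FPKM (median 3.67). At day 21 the values were 3.45, 3.84, 4.22, 3.93 and 3.33 FPKM, every sample below every uninjured muscle. Log2 fold changes of P4ha2 were 0.11 at day 3, -0.19 at day 7, -0.43 at day 14 (SE 0.15, limma adjusted p = 0.046) and -0.45 at day 21 (SE 0.16, adjusted p = 0.11). The call at day 14 sat at the threshold: it was lost in 17 of the 27 fits that left out 1 library, without the filter on low values, with FPKM rescaled to a common sum and when each library was divided by its own read total.

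Serpinh1 was by far the most abundant of the 10. Uninjured muscle held 54.2, 42.8, 33.4, 37.6 and 37.1 FPKM, and day 3 muscle 179, 192, 245, 256 and 181 FPKM. At day 7 it ranged from 80.8 to 230 FPKM (median 103) and at day 14 from 64.9 to 144 FPKM (median 91.4), and at all 3 times no sample overlapped the uninjured range. The 5 day 21 values were 62.9, 73.4, 69.9, 48.5 and 85.3 FPKM, with 4 of 5 samples above the uninjured range. Its log2 fold changes were 2.33, 1.52, 1.19 and 0.71 in the order of time, of which the first 3 passed the test (limma adjusted p = 2.5e-07, 8.0e-05 and 0.0016) and the last did not (adjusted p = 0.10).

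Promoter sequences of 5 of the 10 genes were matched in RefSeq (build GRCm38.p6). The 4 printed here set 2 genes that rose at day 3, Serpinh1 and Plod1, beside the alpha subunit genes that did not pass the test then, P4ha1 and P4ha2. The fifth, that of Plod3, which also rose, overlaps exons of Znhit1 and is not printed. Each is the run of 250 bases before the transcript start that RefSeq gives, 5′ to 3′ on the gene's own strand, in lower case, with the GC box motif GGGCGG (or its reverse complement CCGCCC) in capitals. Serpinh1 lies at chr7:99353240-99353489 on the minus strand, Plod1 at chr4:147936777-147937026 on the minus strand, P4ha1 at chr10:59323046-59323295 on the plus strand and P4ha2 at chr11:54100674-54100923 on the plus strand. For P4ha2 that start lies 829 bases inside the deposited gene model, which begins with an exon of another transcript, so its sequence precedes an internal start and not the gene's first base.
Serpinh1: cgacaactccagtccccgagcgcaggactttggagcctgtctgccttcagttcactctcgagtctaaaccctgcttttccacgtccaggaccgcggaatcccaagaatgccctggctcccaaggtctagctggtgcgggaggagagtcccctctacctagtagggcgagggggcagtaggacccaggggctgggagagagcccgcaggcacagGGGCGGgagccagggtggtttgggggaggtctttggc
Plod1: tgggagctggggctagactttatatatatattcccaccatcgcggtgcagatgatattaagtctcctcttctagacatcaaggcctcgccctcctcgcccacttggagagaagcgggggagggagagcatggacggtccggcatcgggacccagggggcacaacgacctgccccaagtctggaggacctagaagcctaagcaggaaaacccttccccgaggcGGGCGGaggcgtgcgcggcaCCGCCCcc
P4ha1: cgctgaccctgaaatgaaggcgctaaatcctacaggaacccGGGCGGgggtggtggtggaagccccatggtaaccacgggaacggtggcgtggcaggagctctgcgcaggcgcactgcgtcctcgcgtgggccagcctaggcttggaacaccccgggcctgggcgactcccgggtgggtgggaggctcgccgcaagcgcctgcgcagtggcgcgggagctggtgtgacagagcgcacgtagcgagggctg
P4ha2: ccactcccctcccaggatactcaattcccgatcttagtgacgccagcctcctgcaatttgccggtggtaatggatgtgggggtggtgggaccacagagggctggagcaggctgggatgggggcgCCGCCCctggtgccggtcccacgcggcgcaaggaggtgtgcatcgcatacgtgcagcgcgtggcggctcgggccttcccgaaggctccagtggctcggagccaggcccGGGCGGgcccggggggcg
The GC box was found once in Serpinh1, 37 bases before that start, once in P4ha1, 209 bases before it, 2 times in Plod1, at 28 and 8 bases, 2 times in P4ha2, at 126 and 18 bases, and not in Plod3. It stood in 32.7% of 32851 RefSeq promoters of the same length, searched on both strands. ACGTG, 1 form of the core bound by hypoxia-inducible factors, was found once each in Serpinh1, Plod3, P4ha1 and P4ha2 and not in Plod1, and in 16.6% of all promoters. GCGTG, the other form searched, was found 1 time in Plod1, 3 times in Plod3 and 2 times each in P4ha1 and P4ha2. It was absent from Serpinh1 and stood in 28.2% of all promoters. The GC content was 63.6% in Serpinh1, 61.6% in Plod1, 55.6% in Plod3, 69.6% in P4ha1 and 70.0% in P4ha2, with a median of 52.4% over all promoters.

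To ask whether the members of a family kept their proportions, log2 ratios were formed within each sample, with 0.1 FPKM added to each gene, and compared with 2-sided exact permutation tests adjusted over 24 tests (6 ratios at 4 times). Lox gained on each of its paralogs. The ratio of Loxl1 to Lox was 2.28 ± 0.27 on the log2 scale in uninjured muscle (SD, n = 5) and 0.93 ± 0.47 at day 3 (n = 5), a difference of -1.36 (SE 0.24, exact permutation test, adjusted p = 0.023). At day 21 the difference was -0.68 (SE 0.17, exact permutation test, adjusted p = 0.035), with 4 of 5 samples below every uninjured muscle, but the call was lost in 8 of the 27 repeats that left out 1 library. The ratio of Loxl2 to Lox differed by -1.53, -1.36 and -0.97 at days 3, 7 and 14, each with an adjusted p of 0.023 by exact permutation, and at day 21 the difference of -0.18 (SE 0.26) did not pass the test. Loxl3 to Lox differed by -0.98, -1.56 and -1.05 at days 3, 7 and 14 (exact permutation test, adjusted p = 0.041, 0.023 and 0.031). In FPKM, Lox made up 11.8% ± 2.2 of the 4 lysyl oxidase transcripts in uninjured muscle (SD, n = 5), and 26.4% ± 5.7, 26.1% ± 6.0, 21.4% ± 5.3 and 17.02% ± 2.98 of them at days 3, 7, 14 and 21. The summed FPKM of the 4 genes rose from 9.61 to 66.5 at day 3 and stood at 15.4 at day 21.

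**Figure D3:**
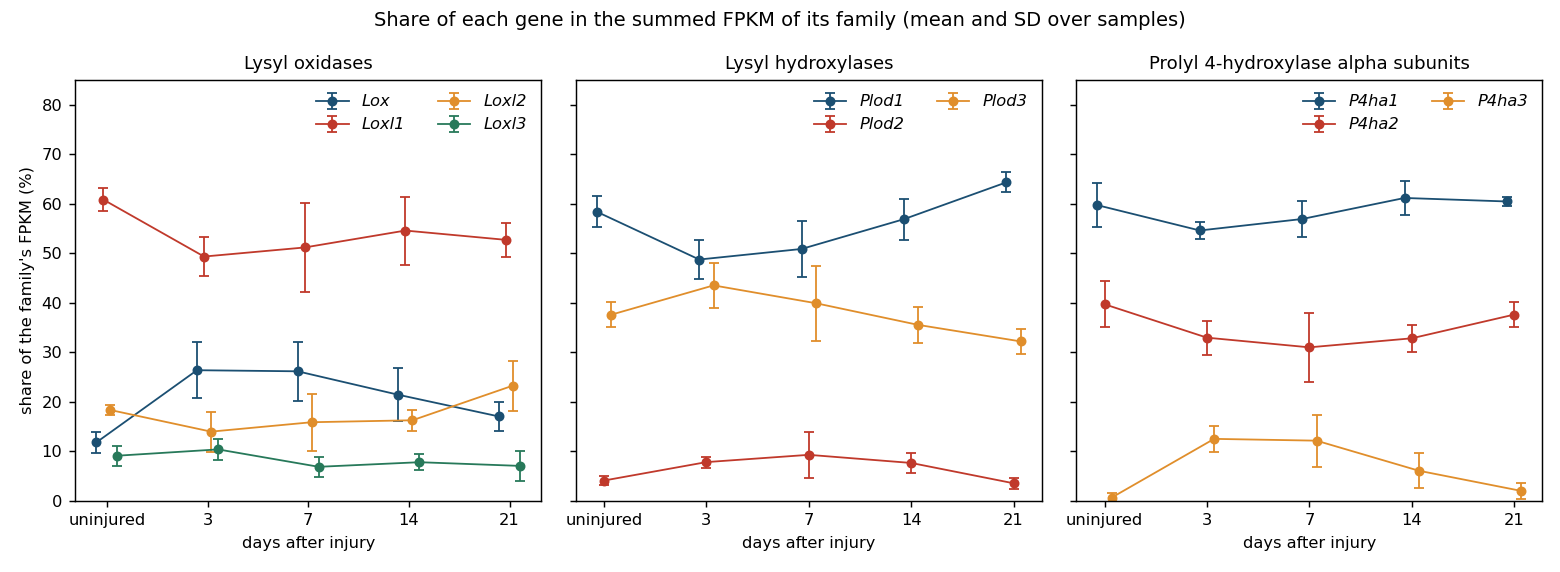
Share of each gene (percent) in the summed FPKM of its family, in uninjured muscle and at days 3, 7, 14 and 21. Points are means over samples and bars SDs. Lox moved from 11.8% to 26.4% of the lysyl oxidase transcripts at day 3, and P4ha3 from 0.655% to 12.5% of the alpha subunit transcripts.

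Within the lysyl hydroxylases, Plod2 gained on Plod1. Its log2 ratio to Plod1 was higher by 1.02 at day 3 (SE 0.16), 1.08 at day 7 (SE 0.34) and 0.77 at day 14 (SE 0.22), with 5 of 5, 5 of 6 and 5 of 6 samples above every uninjured muscle (exact permutation test, adjusted p = 0.023, 0.041 and 0.023). The day 21 difference of -0.40 did not pass the test. Plod2 remained the scarcest of the 3, at 4.09% of their FPKM in uninjured muscle, 9.28% at day 7 and 3.54% at day 21. Plod3 to Plod1 passed the test only at day 21, with -0.36 (SE 0.10, exact permutation test, adjusted p = 0.041). With 1 library left out, that adjusted p reached up to 0.082. The day 3 difference went the other way, by 0.46 (SE 0.14), just outside the threshold (exact permutation test, adjusted p = 0.060). P4ha2 to P4ha1 passed at none of the 4 times, with differences of -0.30 to -0.09. With a pseudocount of 1 in place of 0.1, the rise of Plod2 against Plod1 did not pass at any of the 3 early times, and Loxl1 to Lox passed at day 3 alone, with -0.76, -0.46 and -0.35 at days 7, 14 and 21 (exact permutation test, adjusted p = 0.059, 0.14 and 0.052). Plod3 to Plod1 was then lost at day 21, where Loxl3 to Lox and Plod2 to Plod1 passed as lower. Leaving out uninjured replicate 1 or uninjured replicate 2 left 0 of the within-family ratios called at any time, in a design where 4 controls against 5 samples allow no exact p below 0.0159, and none of the called ratios changed direction.

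P4ha3 encodes the remaining alpha subunit. It is not among the 10 and was counted in at most 12 reads in any uninjured library, where it made up 0.655% ± 0.819 of the alpha subunit FPKM (SD, n = 5). At day 3 the share was 12.5% ± 2.6 and at day 7 12.1% ± 5.2, with 1.56 to 3.26 FPKM at day 3. No uninjured library reached 0.5 FPKM, the minimum asked of 5 samples for a gene to be tested, so P4ha3 entered the test only through injured muscle, where it was high, and its differences of 1.59, 1.33, 0.61 and 0.14 on the log2 scale at the 4 times are given without a p. P4hb, the beta subunit shared by all prolyl 4-hydroxylases, rose by 1.03 at day 3 and 0.53 at day 7 (limma adjusted p = 9.6e-05 and 0.026) from a mean of 57.7 FPKM. The summed FPKM of the 3 alpha subunits was 13.9 ± 0.6 in uninjured muscle, 18.4 ± 2.8 at day 3 and 10.04 ± 1.41 at day 21 (SD, n = 5 each).

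Next, each gene was set beside fibrillar collagen transcripts in the same sample. This was the log2 ratio to the mean of Col1a1, Col1a2 and Col3a1, the chains of collagens I and III. These need not be the main substrates of every enzyme, as with Loxl1 and Loxl2 above. All 3 collagen genes were called higher at all 4 times. Col1a1 rose from a mean of 23.7 FPKM to 297 at day 3 and 305 at day 7, and was at 63.1 FPKM at day 21 (limma log2 fold change 1.44, adjusted p = 0.039). Lox was the only one of the 10 whose ratio to collagen passed the test at none of the 4 times. Its ratio differed from uninjured muscle by 0.53 (SE 0.48), 0.0058 (SE 0.43), -0.47 (SE 0.35) and -0.34 (SE 0.30) in the order of time, none of which passed an exact permutation test adjusted over 40 tests. With a pseudocount of 1 the first 2 differences turned negative, and those at days 14 and 21 passed as lower, so the result for Lox was obtained with a pseudocount of 0.1 and without one but not with 1.

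The ratios of the other 9 genes to collagen were lower at most times, as were those of most genes. Of the 10 ratios, 8 were lower at day 3, 9 each at days 7 and 14 and 8 at day 21, and 0 were higher, also when adjusted over all 14627 tested genes other than the 3 collagens. Of those 14627 genes, 91.4%, 93.4%, 89.8% and 75.5% were lower in the order of time, so that the count over the 10 was near the background. The median difference of all genes was -3.25, -3.23, -2.47 and -1.47 at the 4 times, and that of the 10 was -1.22, -1.72, -1.47 and -1.19. Among the 10, P4ha2 differed most, by -3.15, -3.51, -3.00 and -2.02 on the log2 scale in the order of time, and P4ha1 by -3.01, -3.20, -2.70 and -1.93 (exact permutation test, adjusted p = 0.011 at each time for both). In all 22 injured samples both ratios were below those of every uninjured muscle. How many of all genes had ratios separated in this way was not counted. Since most genes were lower against collagen, the separation is given as a description only and does not set P4ha1 and P4ha2 apart from other genes. At day 7 the ratio of P4ha2 to collagen was 0.088 times, and that of P4ha1 0.109 times, the uninjured ratio. The ratio of Serpinh1 to collagen differed by -0.92, -1.73, -1.28 and -0.76, and that of Loxl1 by -0.82, -1.30, -1.39 and -1.02 (adjusted p = 0.011 by exact permutation at each time for both). Besides Lox, the exceptions were Loxl3 at day 3, with a difference of -0.45 (SE 0.38), and Loxl2 at day 21, with -0.53 (SE 0.27). The smallest p that 5 samples against 5 allow is 0.0079, and 6 against 5 allow 0.0043.

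**Figure D4:**
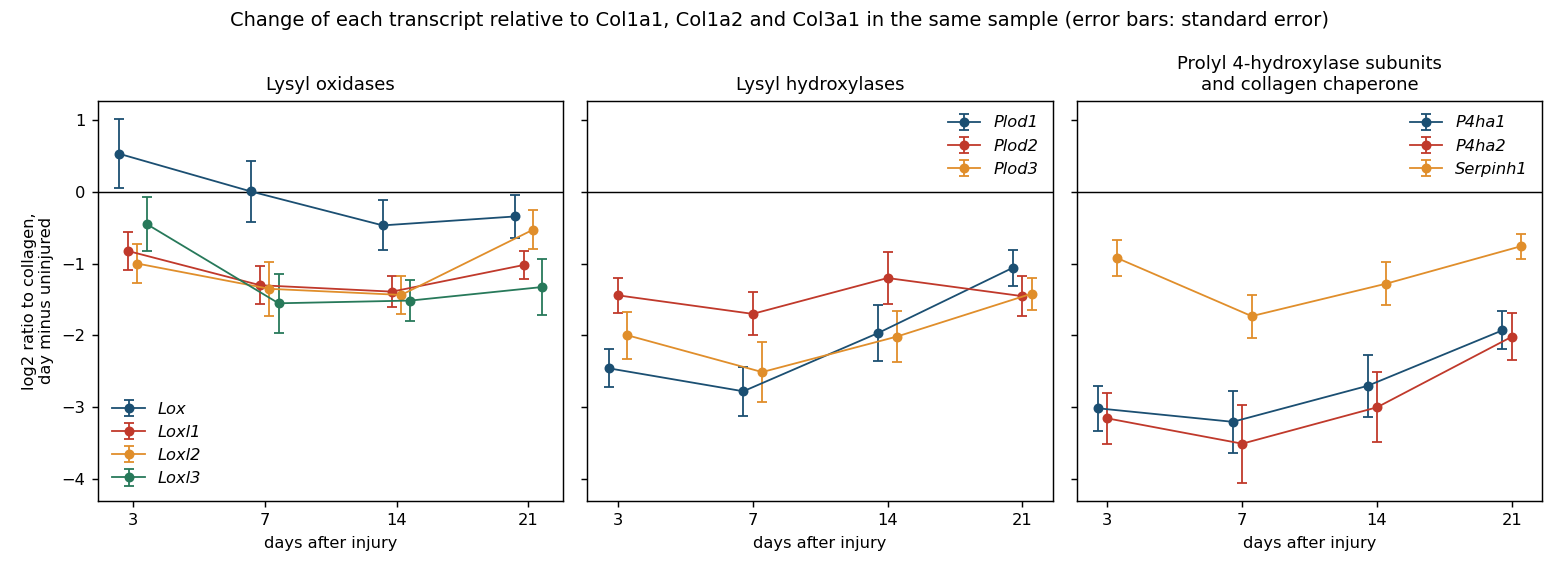
Log2 ratio of each gene to the mean of Col1a1, Col1a2 and Col3a1 in the same sample, as the difference of each day from uninjured muscle, by enzyme family. Points are mean differences and bars their standard errors. Lox lay around 0 from 0.53 to -0.47, and P4ha1 and P4ha2 lay lowest, at -3.20 and -3.51 on day 7, when the median of all tested genes was -3.23.

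Of 24 other genes of collagen biosynthesis, 20 had values high enough to be tested; P3h2, Loxl4, Tll1 and Adamts3 did not. At day 3, 14 were higher, 4 lower and 2 not called, against 23.4% of all tested genes higher and 19.8% lower. At day 7 the numbers were 13, 2 and 5, against 15% and 14.4% of all genes, and at day 14 they were 9, 2 and 9, against 9.02% and 11.3%. At day 21 they were 1, 0 and 19, against 1.74% and 1.69%. The number lower was thus near the background or below it at each time. From day 3 to day 21, 15 fell and 1 rose, where 16.2% of all tested genes fell and 9.23% rose. Their median log2 fold change against uninjured muscle was 1.21, 0.86, 0.53 and 0.24 at the 4 times. All 7 tested genes of hydroxylation other than the members were called higher at days 3 and 7. P4ha3 is 1 of these 7, and the list also holds Adamts14. They reached 0.5 FPKM in 0 and 1 of 5 uninjured libraries, so they were tested only through injured muscle, where they were high. Their part in the counts is no support. P3h1 and Crtap, which with Ppib form the complex that 3-hydroxylates prolines, rose at day 3 by 1.29 and 2.06, and Ppib by 1.74 (limma adjusted p = 1.0e-05, 2.9e-06 and 2.0e-05). Bmp1, a proteinase that removes the C-propeptide and also activates the Lox precursor, rose by 1.42 at day 3 and 1.06 at day 14, and Pcolce, an enhancer of that cleavage, by 1.79 and 1.27 (limma adjusted p from 2.5e-06 to 0.00070). Colgalt1, which adds galactose to hydroxylysine, was not called against uninjured muscle at any time, with log2 fold changes of 0.54, 0.51, -0.23 and -0.27. Its paralog Colgalt2, named after its values were seen, was called lower at day 3 only. The mean of Colgalt2 was then 0.46 FPKM against 1.16 in uninjured muscle, with overlapping samples.

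Fkbp10 was the 1 gene of the list called higher at day 21. It encodes FKBP65, a prolyl isomerase of the endoplasmic reticulum that works with lysyl hydroxylase 2 and HSP47. Its mean FPKM was 2.04 in uninjured muscle and 23.2, 12.5, 7.42 and 5.02 at the 4 times (limma adjusted p = 7.5e-08, 1.3e-05, 0.00078 and 0.039). The genes of the list that fell at day 3 included Mia3 and Sec23a, which encode parts of the machinery that exports procollagen from the endoplasmic reticulum. Sec24d, of the same machinery, rose (limma log2 fold change 1.13, adjusted p = 6.3e-05), and these 3 were chosen after their values were seen.

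The direct comparison of day 21 with day 3 gave the size of the return. On the log2 scale the difference was -2.32 for Lox, -1.90 for Loxl3, -1.88 for Loxl1 and -1.62 for Serpinh1. It was -1.14 for Loxl2, -1.09 for Plod3 and -0.99 for Plod2. The smallest differences were those of P4ha1 (-0.64), P4ha2 (-0.56) and Plod1 (-0.37, SE 0.13, limma adjusted p = 0.042). The call for Plod1 was lost in 7 of the 27 fits that left out 1 library, each time a library of day 3 or day 21. At day 21 itself, some 95% intervals of the log2 fold change against uninjured muscle excluded 0 before adjustment. They were above 0 for Lox (0.16 to 1.36), Loxl2 (0.27 to 1.14), Plod1 (0.11 to 0.66) and Serpinh1 (0.21 to 1.21). They were below 0 for P4ha1 (-0.69 to -0.11) and P4ha2 (-0.77 to -0.13). Of the 14630 tested genes, 2898 reached an unadjusted limma p under 0.05 in this comparison. Fitting day 21 and uninjured muscle alone called 5 of the 10, Lox, Loxl2, Plod1 and Serpinh1 as higher and P4ha2 as lower, and voom weights on the recovered reads called 0. The number called over all tested genes moves with the setting too. At day 14 it was 2969 in the main fit, 3748 with only the 2 groups compared and 2726 with voom weights. The shares at day 21 under these settings are not given here, so these calls are no result about the 10.

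Over the 27 samples, the genes whose log2(FPKM + 1) was most like the mean of the 10 standardized members were Dbn1 (Pearson's r = 0.971), Rassf4 (0.965), Tyrobp (0.965), Cebpa (0.964) and Rrbp1 (0.964). These correlations run across all groups and are given as a description. Among the members, Loxl3 was closest to the mean of the other 9 (r = 0.968), followed by Serpinh1 (0.936), Plod3 (0.929), Lox (0.927) and Loxl1 (0.916). Plod1 (0.736), P4ha1 (0.603) and P4ha2 (0.251) were furthest from it.

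Transcripts used as markers of cell types moved over the same time. The summed FPKM of 6 macrophage markers was 3.34 to 4.39 in uninjured muscle and 53.0 to 331 at day 3, and it had come down to 7.17 to 11.5 by day 21 after a wide range of 8.10 to 324 at day 7. For 6 fibroblast markers it was 46.5 to 94.9 in uninjured muscle, 108 to 212 at day 3 and 80.8 to 117 at day 21. For 6 myofibre markers it was 71664 to 87364 in uninjured muscle and 17954 to 47535 at day 3. Of these lists, 6 of 6 macrophage and 4 of 6 fibroblast markers were higher at day 3 and 6 of 6 myofibre markers lower. Of all tested genes, 23.4% were higher and 19.8% lower. The fibroblast markers Dcn (median 28.15 FPKM uninjured, 30.08 at day 3) and Pdgfrb (9.18 and 10.42) hardly moved. In the other lists, 3 of 4 satellite cell, 1 of 3 tenocyte, 1 of 4 smooth muscle and 1 of 1 tested chondrocyte markers were higher. Lower were 2 of 6 endothelial and 1 of 4 smooth muscle markers. No marker was at 0 in every sample. The part of these shifts in the values above was not tested.

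Reads counted on genes, as recovered from FPKM and gene length, numbered 14376395 to 24436763 per library, with a median of 17398586. By their expression over all tested genes, 9 of the 27 libraries were closest to the mean of another group, among them day 3 replicate 5, closest to day 7, and day 7 replicate 5, closest to day 3. Those 2 libraries were the lowest of day 3 for Lox, at 8.25 FPKM, and the highest of day 7, at 30.4 FPKM. Without the 9 libraries, an alternative chosen after the data were seen, the 8 genes called higher at days 3 and 7 were called again, P4ha1 joined them at day 3 with a log2 fold change of 0.33 (limma adjusted p = 0.016), and P4ha2 was called lower at day 7 with -0.54 (adjusted p = 0.0014). At day 14 Loxl3 and Plod3 were then called higher as well, and at day 21 Lox and Loxl2 were called higher and P4ha1 and P4ha2 lower. Leaving out libraries for their closeness to another group sets the groups apart by construction, so these added calls are no support. Over all tested genes, the number called at day 14 rose from 2969 to 4751.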

How the data were processed

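Per the labels and the study's methods, poly-A RNA of the muscles was made into non-directional libraries, sequenced on a NovaSeq instrument and processed with HISAT2 2.0.5 and featureCounts 1.5.0-p3 (versions from the submitters' processing notes). The authors deposited FPKM per gene, with gene lengths; the genome build is not given in the sources used here, but 98.3% of the genes found in GENCODE M21 (GRCm38) had the same start and end. FPKM multiplied by gene length gave whole reads (tolerance 0.02) for 100% of values, and the FPKM denominator was 0.747 to 1.48 times a sample's own total, with group means of 0.782 (uninjured), 1.25 (day 3), 1.18 (day 7), 1.04 (day 14) and 0.897 (day 21).

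FPKM was transformed to log2(FPKM + 1), and genes reaching 0.5 FPKM in 5 or more samples (14630) entered a single limma 3.58.1 fit (R 4.3.3) of all 27 samples with a variance trend. Fold changes on this scale understate the change of low genes. Tests were two-sided with Benjamini-Hochberg adjustment within each comparison at 0.05. Within-sample log2 ratios (pseudocount 0.1) were compared with exact two-sided permutation tests (SciPy 1.17.1), and the ratio to collagen was also tested in all other genes as background. The fits were tested on simulated data. Text names all members, Col1a1, Col1a2 and Col3a1, listed paralogs and partners, and the 5 genes most like the members' mean. The members, lists and tests were chosen with earlier results of these data known.

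Alternatives were pseudocounts, filters, FPKM rescaled to a common sum (TPM), median-ratio and quantile scaling, no trend, a block for the replicate number or letter, fits of only 2 groups, voom weights and each library left out. Added after seeing the data were sample quality weights, a library's own read total as denominator, and the exclusion of libraries closest to another group. Groups and replicate numbers came from sample titles. Deviations of same-numbered samples of different groups had correlations from -0.521 to 0.566 in 51 pairs, with a median of -0.003 and 15 over 0.1. Differently numbered pairs were not examined, so whether same-numbered samples deviate together was not decided. The numbers were not taken as pairs in the main fit. At day 14, 2969 of all tested genes were called without a block, 3684 with the number as block and 3701 with the letter.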

Additional observations from a re-analysis of the deposited data

Results flagged for a closer look

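In 5 of 50 groups of samples (10 genes in 5 groups), 1 sample stood apart from the rest of its group by Dixon's criterion, which chance alone does in about 1 in 20 groups. They were Loxl2 in uninjured replicate 2, at 2.27 FPKM, Loxl3 in day 7 replicate 5, at 9.99 FPKM, Loxl3 in day 21 replicate 4, at 0.174 FPKM (12 reads), Plod1 in day 14 replicate 5, at 14.9 FPKM, and Plod3 in day 7 replicate 5, at 15.8 FPKM. Leaving out day 7 replicate 5 changed none of the 8 calls at day 7, and it was among the libraries closest to another group.

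The change from uninjured muscle differed between day 21 and day 3 for all 10 genes in the direct limma comparison, with lower values at day 21. The log2 differences were -2.32 for Lox, -1.88 for Loxl1, -1.14 for Loxl2, -1.90 for Loxl3, -0.37 for Plod1, -0.99 for Plod2, -1.09 for Plod3, -0.64 for P4ha1, -0.56 for P4ha2 and -1.62 for Serpinh1. Of all tested genes, 16.2% were lower in that comparison.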

How the results depend on the processing

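The counts of genes called at days 3, 7 and 14 and between days 21 and 3 stayed within 1.5 times of the reported ones under every alternative, as did the counts of ratios to collagen. The count at day 21, reported as 0, was 2 with a pseudocount of 0.1, 1 with 0.5, 5 with only the 2 groups compared and 6 with sample quality weights. It was 2 without day 3 replicate 5 and day 7 replicate 5. Without the 9 libraries closest to another group, an exclusion that sets the groups apart by construction, it was 4. With the replicate block it was 2 (number) or 4 (letter), and the block ended no call in the other comparisons. Calls over all tested genes rose as well under such settings. At day 14 they numbered 2969 in the main fit, 3330 with a pseudocount of 0.1 and 4324 with sample quality weights. The shares of all tested genes at day 21 are not given here for these settings, so the added calls are no result about the 10. With 1 library left out the count stayed at 8 for days 3 and 7, and lay between 6 and 8 for day 14, 0 and 1 for day 21, and 9 and 10 for days 21 against 3. The within-family counts at days 7 and 14 were 2 with a pseudocount of 1, and with 1 library left out they ranged from 0 to 4 at days 3, 7 and 14 and from 0 to 2 at day 21. At day 21 any library of day 21, or uninjured replicate 1, 2, 4 or 5, lowered that count. Ratios to collagen numbered 8 to 9 at days 3 and 21 and 9 at days 7 and 14.

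Signs turned only for values that had not passed the test. P4ha1 at day 7 became -0.073 with sample quality weights, -0.026 without day 3 replicate 5 and day 7 replicate 5, and -0.15 without the 9 libraries, and ranged from -0.026 (without day 7 replicate 5) to 0.13 with 1 library left out. P4ha2 at day 7 became 0.41 and P4ha1 at day 14 0.23 with FPKM rescaled to a common sum, and 0.26 and 0.16 with a library's own read total. Plod2 at day 21 became -0.057 with quantile normalization, and ranged from -0.033 to 0.068 with 1 library left out. Plod3 at day 21 became -0.0102 with sample quality weights and -0.073 without the 9 libraries, and ranged from -0.036 (without day 21 replicate 5) to 0.12. Lox to collagen became -0.13 at day 3 and -0.62 at day 7 with a pseudocount of 1, and ranged from -0.27 upwards at day 7 with 1 library left out. Plod3 to Plod1 at day 14 ranged from -0.12 to 0.033 (without day 14 replicate 5), and P4ha2 to P4ha1 at day 21 from -0.15 to 0.021 (without uninjured replicate 3). The causes were not tested. Low read numbers limit Plod2, Loxl3 and P4ha3, with 25 to 68, 26 to 111 and 0 to 12 reads in uninjured muscle.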
